A study of Mus musculus with 15 samples.

Results

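Transcripts of 34 genes of DNA replication and mitosis were followed in mouse liver, out of 18131 genes in the deposited count table. The genes were taken from the table by gene symbol, and all 34 were found. The 10 replication genes were Mcm2, Mcm3, Mcm4, Mcm5, Mcm6, Mcm7, Pcna, Rrm2, Tyms and Tk1. The 24 mitosis genes were Mki67, Top2a, Cdk1, Ccna2, Ccnb1, Ccnb2, Cdc20, Birc5, Bub1, Plk1, Aurka, Aurkb, Cenpf, Kif11, Kif20a, Prc1, Tpx2, Ube2c, Cks2, Nusap1, Cdca8, Ncapg, Racgap1 and Anln.

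Liver messenger RNA of male C57BL/6 mice aged 6 months was sequenced in 15 libraries. The high salt diet (HSD) held 8% NaCl and the normal salt diet (NSD) 0.4%, and mice received these diets from an age of 6 weeks. The length of feeding is labelled in conflicting ways, as 4 months in the protocol and as 8 weeks in the characteristics. SIRT3 is a deacetylase of the mitochondrial matrix. The groups were labelled Sirt3-/- mice on high salt (labelled KO HSD, n = 3), labelled Sirt3-/- mice on normal salt (labelled KO NSD, n = 3), wild-type mice on high salt (WT HSD, n = 3) and wild-type mice on normal salt (WT NSD, n = 3). An additional wild-type set held 2 libraries on high salt and 1 on normal salt. No source used here describes the Sirt3 allele, and nothing in the labels says whether a library came from 1 animal or from several.

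In a dividing cell, the replication genes are transcribed at the passage from G1 into S phase, largely under E2F factors. Mcm2 to Mcm7 encode the ring of the replicative helicase, Pcna the sliding clamp of the DNA polymerases, and Rrm2, Tyms and Tk1 enzymes that supply deoxynucleotides. The mitosis genes are transcribed later, in G2 and mitosis, under the MuvB complex with B-MYB and FOXM1, through promoter elements called CHR. Hepatocytes of adult liver rarely divide, but re-enter the cycle after injury or loss of tissue, and blood-derived and endothelial cells in the same tissue can also divide. In bulk tissue, fewer cells of a type and less RNA per cell cannot be told apart.

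The promoter letters of the 2 gene groups are shown because the replication and the mitosis genes had different leading libraries, as described below. RefSeq promoter windows (GRCm38.p6, 250 bases before to 50 after each start) were found for 29 of the 34 genes, in 31 windows, with 2 windows each for Mcm7 and Prc1. Mcm4, Ccna2, Aurkb, Kif20a and Tpx2 had no window. On both strands, the letters TTTGAA (the CHR element), CCAAT (the box bound by NF-Y) and TTCCCGC or TTGGCGC (E2F motifs) were searched. The CHR letters were in 76.2% of the 21 mitosis windows and 10.0% of the 10 replication windows, against 17.9% of all 32851 windows. The E2F letters were in 19.0% of the mitosis windows and 50.0% of the replication windows, against 6.81% of all windows. CCAAT was common to both groups, at 85.7% of the mitosis and 80.0% of the replication windows, against 37.4% of all. CHR and CCAAT stood together in 71.4% of the mitosis windows and 10.0% of the replication windows, against 6.95% of all. Of 37 windows of other mitosis genes, 75.7% held CHR letters, and of 39 windows of other replication genes 53.8% held E2F letters. A match is a run of letters and does not show binding, and no match says only that these letters are not in this window. The searched motifs overlapped each other in 5 places, in Mcm3, Mcm7, Ccnb1, Ube2c and Cdca8.

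The printed windows are Mcm2 (chr6:88898731-88899030) and Mcm3 (chr1:20820263-20820562) for replication, and Mki67 (chr7:135716330-135716629), Top2a (chr11:99024140-99024439) and Cdk1 (chr10:69352863-69353162) for mitosis. Ccnb2 (chr9:70421505-70421804) and Cdc20 (chr4:118437294-118437593) were added after their values were seen. Among the listed genes with enough counts to be tested, they had the 2 largest fold changes between WT HSD and WT NSD. All 7 lie on the minus strand of GRCm38.p6 and are given 5′ to 3′ on the gene's strand, with every searched motif in capitals on either strand.
Mcm2: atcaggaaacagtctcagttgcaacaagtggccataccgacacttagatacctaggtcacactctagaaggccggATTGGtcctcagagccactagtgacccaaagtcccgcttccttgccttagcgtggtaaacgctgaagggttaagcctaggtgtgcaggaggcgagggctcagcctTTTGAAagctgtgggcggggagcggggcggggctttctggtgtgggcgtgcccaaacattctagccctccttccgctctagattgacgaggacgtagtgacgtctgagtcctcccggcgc
Mcm3: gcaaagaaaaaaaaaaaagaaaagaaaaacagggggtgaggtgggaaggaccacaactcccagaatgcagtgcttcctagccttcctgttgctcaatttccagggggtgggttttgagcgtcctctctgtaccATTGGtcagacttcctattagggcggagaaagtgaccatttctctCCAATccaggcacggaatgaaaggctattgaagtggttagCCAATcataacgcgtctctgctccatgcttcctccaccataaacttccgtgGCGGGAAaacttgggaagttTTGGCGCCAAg
Mki67: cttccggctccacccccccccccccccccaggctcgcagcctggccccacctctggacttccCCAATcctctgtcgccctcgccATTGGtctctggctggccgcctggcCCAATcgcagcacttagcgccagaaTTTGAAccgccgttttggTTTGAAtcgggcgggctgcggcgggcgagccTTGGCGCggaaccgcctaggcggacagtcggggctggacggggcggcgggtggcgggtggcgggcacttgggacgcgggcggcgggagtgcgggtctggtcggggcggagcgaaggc
Top2a: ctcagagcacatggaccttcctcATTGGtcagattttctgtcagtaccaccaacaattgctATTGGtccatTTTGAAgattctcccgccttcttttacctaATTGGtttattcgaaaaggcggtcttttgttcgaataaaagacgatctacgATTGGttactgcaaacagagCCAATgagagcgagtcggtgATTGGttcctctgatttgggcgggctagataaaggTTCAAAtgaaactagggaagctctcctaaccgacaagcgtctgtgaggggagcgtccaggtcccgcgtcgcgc
Cdk1: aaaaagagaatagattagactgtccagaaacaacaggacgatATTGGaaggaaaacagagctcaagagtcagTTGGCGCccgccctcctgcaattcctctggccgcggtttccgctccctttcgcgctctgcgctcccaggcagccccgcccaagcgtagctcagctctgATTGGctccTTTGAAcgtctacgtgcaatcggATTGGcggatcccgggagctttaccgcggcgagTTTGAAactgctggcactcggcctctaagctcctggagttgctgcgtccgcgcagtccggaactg
Ccnb2: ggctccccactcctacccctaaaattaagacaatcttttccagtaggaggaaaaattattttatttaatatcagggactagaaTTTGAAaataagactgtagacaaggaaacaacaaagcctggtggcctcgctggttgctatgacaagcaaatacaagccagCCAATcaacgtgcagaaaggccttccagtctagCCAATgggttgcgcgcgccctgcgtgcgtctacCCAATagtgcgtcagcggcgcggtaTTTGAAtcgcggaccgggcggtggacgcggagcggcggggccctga
Cdc20: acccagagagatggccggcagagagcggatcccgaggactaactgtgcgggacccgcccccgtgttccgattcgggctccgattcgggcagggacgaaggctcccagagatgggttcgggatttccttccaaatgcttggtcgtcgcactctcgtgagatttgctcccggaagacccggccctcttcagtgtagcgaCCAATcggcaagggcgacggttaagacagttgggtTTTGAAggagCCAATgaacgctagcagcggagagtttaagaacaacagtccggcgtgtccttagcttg
Mcm2 held a CHR match, unlike the other 9 replication windows, and Mcm3 held E2F letters after its start. Each of the 5 mitosis windows held CHR and CCAAT letters, and those of Mki67 and Cdk1 also an E2F motif.

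**Figure D1:**
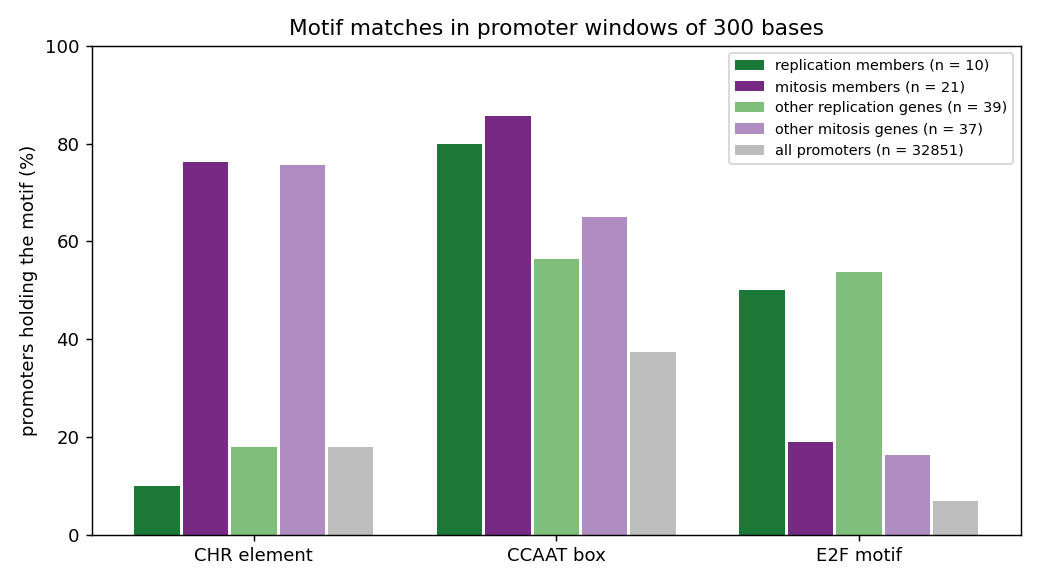
Share of RefSeq promoter windows (percent, vertical axis) that hold the CHR, CCAAT or E2F letters, for the replication and mitosis genes, other genes of both processes and all 32851 windows (bars). CHR letters stood in 76.2% of mitosis windows and 10.0% of replication windows, E2F letters in 19.0% and 50.0%.

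The libraries held 15726897 to 19539406 counts, and levels are given as CPM (counts per 1000000 counts of the library, with library sizes scaled by the TMM method). The 8 hepatocyte markers (Alb, Apoa1 and others) summed to between 100000 and 147000 CPM, and none was at 0 in any library. Sirt3 had 62.6, 68.8 and 56.7 CPM in labelled KO HSD and 64.8, 43.4 and 43.8 CPM in labelled KO NSD, against 83.9, 65.7 and 65.7 CPM in WT HSD and 49.8, 52.9 and 53.2 CPM in WT NSD. The level of the whole gene thus did not separate the labelled genotypes and gives no check of those labels, and every direction between them below rests on the labels alone. Labelled KO NSD 1 and labelled KO NSD 3, though labelled male, had 4 and 0 counts of the Y-linked gene Ddx3y, against 381 to 936 in the other 13 libraries. WT HSD 3, WT NSD 3 and both additional WT HSD libraries had FPKM sums of 557557 to 574472, and the other 11 libraries of 587158 to 705398. The medians of the comparisons that use labelled KO NSD 1 and 3 are given with and without them. The additional set allows no value without its low-sum libraries, since both of its high salt libraries are among them.

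Levels between genes were compared as FPKM, which divides by transcript length. Cks2 (a small subunit of cyclin-dependent kinases) was the most abundant, with a median of 19.6 FPKM over the 15 libraries, followed by Tk1 with 19.2, Pcna with 15.7, Tyms with 9.72 and Mcm7 with 4.27 FPKM. The ranges of Cks2 (12.47 to 23.63 FPKM), Tk1 (11.12 to 44 FPKM) and Pcna (12.16 to 22.21 FPKM) overlapped, so their order did not exceed their spread. The other 29 genes had medians from 0.02 FPKM for Bub1, a spindle checkpoint kinase, to 1.53 FPKM for Rrm2, the regulated subunit of ribonucleotide reductase. At this depth 15 of the 34 genes reached 10 counts in every library, among them all 10 replication genes but only Birc5, Aurka, Prc1, Ube2c and Cks2 of the mitosis genes. Ccnb1, Bub1, Aurkb, Cenpf and Ncapg had 0 counts in at least 1 library, where 3 counts, or 0.139 to 0.18 CPM depending on the library, is the level that a count of 0 allows (counting error only).

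RSEM divides reads that fit several genes, and no source used here gives the strandedness of the libraries. In RefSeq, 10 of the 34 genes overlap another protein-coding gene (Mcm7, Tk1, Ccna2, Cdc20, Aurka, Kif20a, Prc1, Nusap1, Ncapg and Anln), and their values are uncertain to that extent. Tk1, the salvage kinase for thymidine, overlaps Afmid, a gene of tryptophan breakdown with 103 to 288 CPM in these livers. Both were highest in additional WT HSD 1, with 50.4 CPM for Tk1 and 288 CPM for Afmid, and both stood near their lowest in labelled KO HSD 3 (16.1 CPM for Tk1 and 104 CPM for Afmid) and additional WT HSD 2 (17.5 CPM for Tk1 and 103 CPM for Afmid). Other libraries did not pair them so: WT NSD 1 had 212 CPM for Afmid but 22.1 CPM for Tk1. Labelled KO NSD 3 had 180 CPM for Afmid and 40.5 CPM for Tk1. Whether reads of Afmid enter the Tk1 values was not tested.

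Across the 15 libraries the mitosis genes were high in a single library. WT HSD 1 was the highest of all 15 libraries in 22 of the 24 mitosis genes, against 6.95% of the 13864 genes tested in all libraries, and among the 3 highest in 23. The exceptions were Bub1, highest in labelled KO NSD 1, and Cks2, highest in labelled KO NSD 2. The 23 mitosis genes other than Cks2 summed to 61.1 CPM in WT HSD 1 and to between 10.6 and 28.1 CPM in the other 14 libraries. The median mitosis gene stood 1.2 log2 units above its own median over the libraries in WT HSD 1. The next highest library was labelled KO NSD 1, at 0.45 log2 units, which was among the 3 highest in 14 of the 24 genes. In replication genes WT HSD 1 was the highest in 0 of 10, among the 3 highest in 4 and above the gene's median in 8, and the median gene stood 0.14 log2 units above its own median. Its Mcm genes summed to 32.7 CPM, below labelled KO NSD 3 and additional WT HSD 2.

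**Figure D2:**
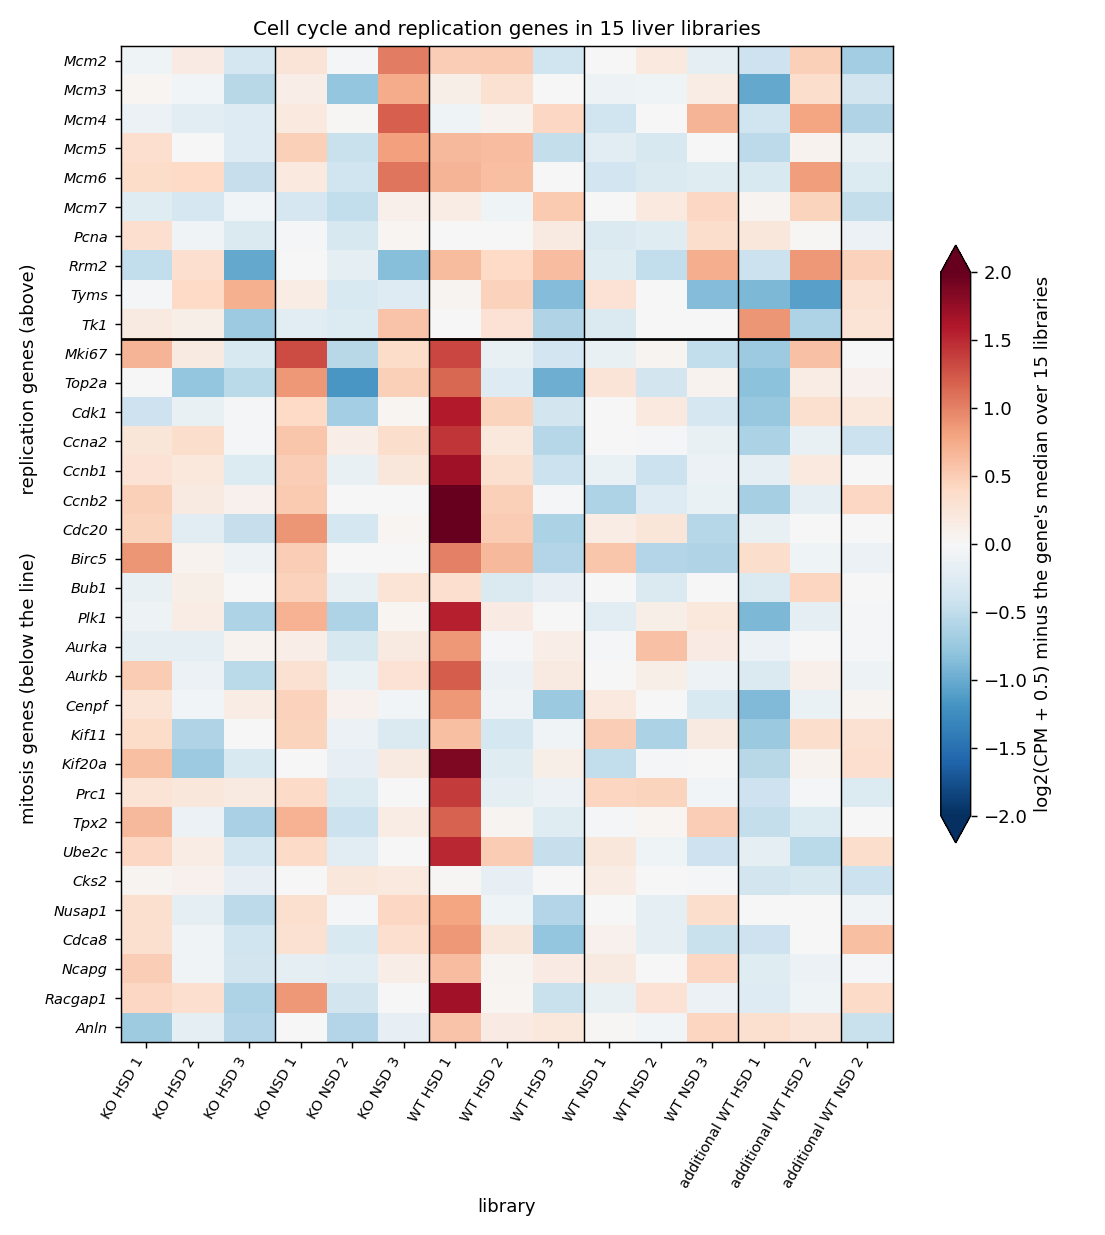
Level of each of the 34 genes (rows of the map) in each of the 15 libraries (horizontal axis), as log2(CPM + 0.5) minus the gene's median over the libraries (colour, red for higher); KO marks libraries labelled Sirt3-/-. WT HSD 1 is the highest library in 22 of the 24 mitosis genes, and labelled KO NSD 3 in Mcm2 to Mcm6.

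Among the mitotic cyclins and the regulators of the anaphase-promoting complex, Cdc20, Ccnb2 and Ccnb1 had the widest gaps between WT HSD 1 and the next library. Cdc20, the activator of that ubiquitin ligase, had 6.98, 0.801 and 0.0932 CPM in WT HSD, against 0.514, 0.579 and 0.120 CPM in WT NSD. WT HSD 1 thus stood alone, with 129 counts where no other library had more than 24, while WT HSD 3 and WT NSD 3 had 2 counts each. Ccnb2, a B-type cyclin that activates Cdk1, had 4.65, 0.801 and 0.419 CPM in WT HSD, against 0.114, 0.289 and 0.361 CPM in WT NSD. For Ccnb2 the 2 groups did not overlap, though WT HSD 3 had 9 counts where the highest WT NSD library had 6, and WT HSD 1 was 5.51 times the second-highest of all libraries. Ccnb1, the other B-type cyclin, had 31 counts (1.68 CPM) in WT HSD 1, and 0 to 9 counts elsewhere. Cdk1, the mitotic kinase itself, had 3.25 CPM in WT HSD 1, 1.2 CPM in WT HSD 2 and at most 1.14 CPM in any other library. Ccna2, the cyclin of S phase and G2, had 3.5 CPM in WT HSD 1, and 0.461 to 1.69 CPM in the others. Ube2c, the ubiquitin-conjugating enzyme of the same ligase, had 4.17 CPM in WT HSD 1, and 0.639 to 1.84 CPM elsewhere. Cks2 varied little, with 13.3, 11.7 and 13.0 CPM in WT HSD and 14.5, 13.2 and 12.7 CPM in WT NSD.

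Mitotic kinases and genes of the chromosomal passenger complex were also highest in WT HSD 1, with smaller gaps than the B-type cyclins. Plk1, a kinase of mitotic entry, had 2.76 CPM in WT HSD 1 and at most 1.29 CPM elsewhere. Aurka, the centrosomal Aurora kinase, had 4.54 CPM in WT HSD 1 and 1.71 to 3.65 CPM elsewhere. Aurkb, the Aurora kinase of the passenger complex, had 1.19 CPM in WT HSD 1 and at most 0.535 CPM elsewhere. By CPM its partners were closer to the rest. Birc5 had 3.52 CPM in WT HSD 1, with 3.17 CPM in labelled KO HSD 1, and Cdca8 had 1.62 CPM, with 1.28 CPM in additional WT NSD 2. In FPKM, Birc5 had 3.01 in WT HSD 1 and at most 1.28 elsewhere, so its gap depended on the measure. The expected counts of Birc5 were not whole in any of the 15 libraries.

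Mki67, which coats mitotic chromosomes and is the usual marker of cycling cells, had 2.98 CPM in WT HSD 1 and 2.88 CPM in labelled KO NSD 1, with 0.326 to 1.71 CPM in the other 13 libraries. Top2a, the topoisomerase that untangles sister chromatids, was high in the same 2 libraries, with 3.08 CPM for WT HSD 1 and 2.44 CPM for labelled KO NSD 1. The motor and bundling proteins of the central spindle stood further apart. Kif20a had 3.22 CPM in WT HSD 1 and at most 1.05 CPM elsewhere, Prc1 had 3.66 CPM and at most 1.63 CPM, and Racgap1 had 2.48 CPM and at most 1.2 CPM. The ratio of WT HSD 1 to the next library was small for the spindle motor Kif11 (1.11), the cytokinetic scaffold Anln (1.16), the condensin subunit Ncapg (1.22), the microtubule-associated protein Nusap1 (1.5), the kinetochore protein Cenpf (1.52) and the spindle assembly factor Tpx2 (1.53). Of the protein-coding genes that overlap a mitosis gene, Oip5, itself a centromere gene, had 0.633 CPM in WT HSD 1 and 0.63 CPM in WT HSD 2, and Elovl1, which overlaps Cdc20, had 55.0 CPM there in a range of 34.2 to 74.8 CPM.

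Markers of cell types were set beside this library. In WT HSD 1 the 11 erythroid markers summed to 801 CPM (270 to 740 CPM elsewhere). The 16 Kupffer cell and macrophage markers summed to 473 CPM (206 to 1190 CPM elsewhere) and the 9 sinusoidal endothelial markers to 213 CPM (83.2 to 287 CPM elsewhere). The 13 neutrophil markers summed to 17.6 CPM (15.4 to 979 CPM elsewhere), with 2 of 13 at 0, and the 13 T and NK cell markers to 6.64 CPM (5.72 to 20.5 CPM elsewhere). The 8 hepatocyte markers summed to 100000 CPM (100000 to 147000 CPM elsewhere) and the 10 stellate cell and matrix markers to 163 CPM (105 to 274 CPM elsewhere). The 7 cholangiocyte markers summed to 53.8 CPM (52.1 to 123 CPM elsewhere) and the 6 B and plasma cell markers to 8.11 CPM (7.76 to 44.5 CPM elsewhere). Labelled KO NSD 1, second in mitosis genes, was the highest of 15 libraries in all 16 macrophage markers and in 11 of 13 neutrophil markers. The part of any of these cells in the mitosis values was not tested.

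The helicase genes had another leading library. Labelled KO NSD 3 was the highest of 15 libraries in 5 of the 6 Mcm genes, with 6.65 CPM for Mcm2, 6.75 CPM for Mcm3, 6.36 CPM for Mcm4, 3.83 CPM for Mcm5 and 8.17 CPM for Mcm6. The 6 genes summed to 43.5 CPM there and to between 18.4 and 38.3 CPM elsewhere. Mcm7, the exception, was highest in WT HSD 3 with 16.1 CPM. The mitosis genes of labelled KO NSD 3 were slightly above their usual level, with a summed 19.2 CPM without Cks2. Their median was 0.14 log2 units above the gene medians, and 16 of 24 stood above their own median. This library also had the highest summed B cell markers (44.5 CPM, against 7.76 to 25.0 CPM elsewhere), endothelial markers (287 CPM, against 83.2 to 219 CPM elsewhere) and T and NK cell markers (20.5 CPM, against 5.72 to 18.6 CPM elsewhere). Its macrophage markers were second with 839 CPM, after 1190 CPM in labelled KO NSD 1. The part of these cells in the Mcm values was not tested.

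**Figure D3:**
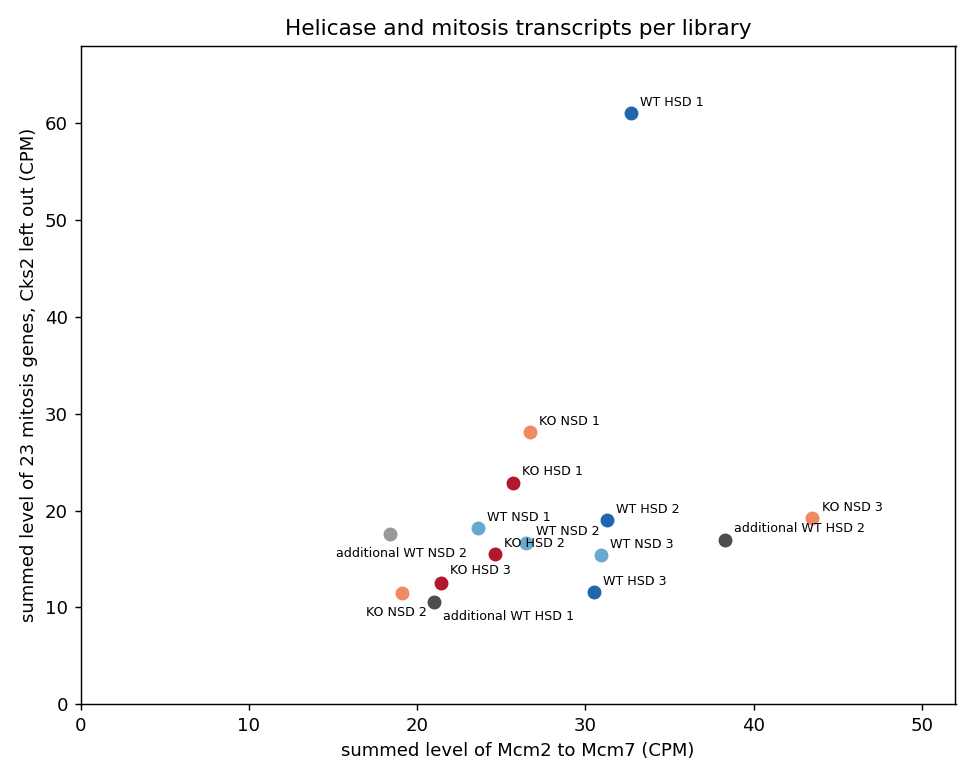
Summed level of Mcm2 to Mcm7 (CPM, horizontal axis) against the summed level of the 23 mitosis genes other than Cks2 (CPM, vertical axis), with 1 point per library; KO marks libraries labelled Sirt3-/-. WT HSD 1 lies alone at 61.1 CPM of mitosis genes with 32.7 CPM of Mcm genes, and KO NSD 3 lies farthest right at 43.5 CPM of Mcm genes with 19.2 CPM of mitosis genes.

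The clamp and nucleotide genes were highest in neither of these libraries. Pcna varied least among the replication genes, with a ratio of highest to lowest library of 1.60, and Rrm2 most, with a ratio of 4.77. Tyms, which makes thymidylate, had 38.2, 51.2 and 63.7 CPM in labelled KO HSD, 43.1, 31.4 and 32.3 CPM in labelled KO NSD, 40.3, 53.5 and 21.1 CPM in WT HSD, 47.5, 38.7 and 21.1 CPM in WT NSD, 20.6 and 18 CPM in the additional WT HSD libraries and 48.1 CPM in the additional WT NSD library. The 4 libraries with the lowest FPKM sums were also the 4 lowest in Tyms, at 18 to 21.1 CPM against 31.4 to 63.7 CPM in the other 11. Labelled KO HSD 3 was the highest in Tyms and the lowest in Mcm6, Rrm2 and Tk1.

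The first comparison asked what high salt did in wild-type liver. The mitosis genes were on the whole higher in WT HSD than in WT NSD, but no member passed the test, and without WT HSD 1 their median difference was below 0. Of 30 members tested, edgeR's quasi-likelihood test with Benjamini-Hochberg adjustment called 0 (smallest adjusted p = 1), as it called 0% of 13051 genes. At an unadjusted p under 0.05 there were 3 members, Ccnb2, Cdc20 and Mcm6, all higher, where 4.47% of all genes passed. DESeq2 called 0 members and 0.0458% of the genes it tested. The 4 genes left out of the test for low counts were Ccnb1, Bub1, Aurkb and Ncapg. Neutrophil markers had a median log2 fold change of -1.46 here (2 of 13 above 0). It was -0.59 (4 of 12) for T and NK cell markers, 0.31 (12 of 16) for macrophage and 0.44 (8 of 10) for erythroid markers. The part of these cells in this comparison was not tested.

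The median log2 fold change of the 20 mitosis genes tested was 0.72, with 19 of 20 above 0, and that of all genes was 0.02. Without WT HSD 1 it was -0.13, with 8 of 20 above 0, and without WT HSD 3 and WT NSD 3, which have low FPKM sums, it was 1.00. Ccnb2 had a log2 fold change of 2.91 ± 0.83 (SE, edgeR adjusted p = 1), and 1.23 ± 0.59 without WT HSD 1. Cdc20 stood at 2.66 ± 1.19 (adjusted p = 1), and at 0.09 ± 0.99 without WT HSD 1. Kif20a stood at 1.67 ± 0.83 (adjusted p = 1), and at 0.16 ± 0.76 without WT HSD 1. Groups did not overlap in 1 mitosis gene (Ccnb2) and 1 replication gene (Mcm6), both higher, against 3.9% of all genes higher without overlap, and in 0 members lower, against 4.74%.

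The replication genes had a median log2 fold change of 0.13 in the same comparison, with 9 of 10 above 0, 0.13 without WT HSD 1 and 0.30 without WT HSD 3 and WT NSD 3. Mcm6, a subunit of the helicase ring, had 6.11, 5.78 and 3.63 CPM in WT HSD, against 2.68, 2.89 and 3.01 CPM in WT NSD. All 3 WT HSD libraries lay above all 3 WT NSD libraries, with a log2 fold change of 0.85 ± 0.39 (adjusted p = 1), and 0.72 ± 0.44 without WT HSD 1. Mcm5 stood at 0.62 ± 0.43 and Rrm2 at 0.51 ± 0.44 (adjusted p = 1 for both). For Mcm5, WT HSD had 3.37, 3.27 and 1.26 CPM and WT NSD 1.63, 1.47 and 1.96 CPM, so that WT HSD 3 was the lowest of the 6.

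**Figure D4:**
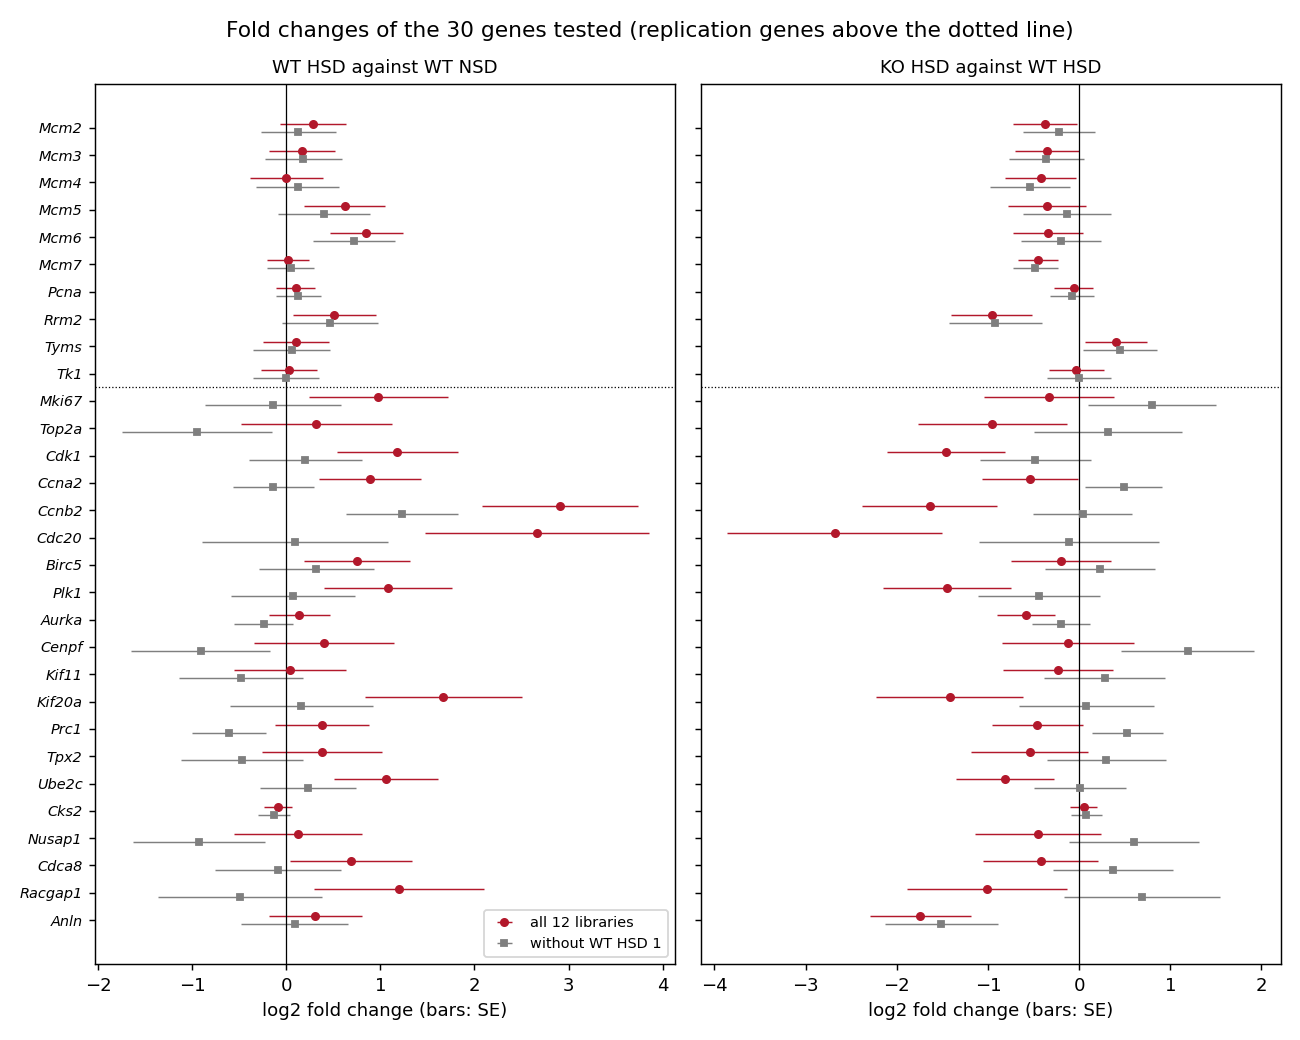
Log2 fold change (horizontal axis, bars SE) of the 30 genes tested, for WT HSD against WT NSD and for labelled KO HSD against WT HSD, with all 12 libraries (red) and without WT HSD 1 (grey). Ccnb2 and Cdc20, at 2.91 and 2.66 in the left panel, stand at 1.23 and 0.09 without WT HSD 1, while the replication genes move little.

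The additional wild-type set asked the same question with 2 libraries against 1, the lone normal salt library being assumed to vary like the other groups. There the mitosis genes pointed, if anything, the other way, with a median log2 fold change of -0.32 and 9 of 22 above 0, and the replication genes had a median of 0.24 with 7 of 10 above 0. No member passed the test (0 of 32, smallest adjusted p = 0.412), against 0.0216% of 13864 genes. At an unadjusted p under 0.05 there were 2 members, against 12.1% of all genes, and DESeq2 called 0 members and 0.159% of its genes. Ccnb2 had 0.0931 and 0.323 CPM in the additional WT HSD libraries, against 0.757 CPM in the additional WT NSD library (log2 fold change -1.83 ± 1.22, adjusted p = 0.499). Tyms had 20.6 and 18 CPM against 48.1 CPM (-1.32 ± 0.48, adjusted p = 0.412), with the 2 high salt libraries also among those of low FPKM sum. Mcm7 had 11.4 and 15.2 CPM against 7.75 CPM (0.78 ± 0.34, adjusted p = 0.413). Of the other genes with the smallest p, Anln stood at 1.60 ± 0.85, Cdca8 at -1.32 ± 0.89 and Mcm4 at 1.14 ± 0.70, with adjusted p from 0.441 to 0.5. Over all 9 wild-type libraries, with the set as a covariate, the medians for high salt were 0.50 for mitosis and 0.27 for replication genes, WT HSD 1 included.

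The next comparison asked what high salt did in the labelled knockout. The medians of both gene groups were slightly lower in labelled KO HSD than in labelled KO NSD, and no gene passed the test. EdgeR called 0 of 30 members (smallest adjusted p = 0.578) and 0% of all genes. At an unadjusted p under 0.05 it had 1 member, Mcm4, against 8.05% of all genes, and DESeq2 called 0 members and 0.418% of its genes. Median log2 fold changes were -0.21 for the mitosis genes, with 4 of 20 above 0, and -0.24 for the replication genes, with 4 of 10 above 0. In the same comparison the markers of neutrophils had a median of -1.99 (1 of 13 above 0), those of B and plasma cells -1.46 (0 of 5), of macrophages -1.09 (0 of 16) and of sinusoidal endothelium -0.75 (0 of 9). Their part in these values was not tested.

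Mcm4, another helicase subunit, had 2.25, 2.07 and 2.00 CPM in labelled KO HSD, against 2.93, 2.53 and 6.36 CPM in labelled KO NSD (log2 fold change -0.91 ± 0.39, adjusted p = 0.578). The groups did not overlap, which held for 1 member lower, against 5.83% of all genes, and for 0 members higher, against 5.88%. Mcm2 had 2.84, 3.47 and 2.28 CPM against 3.73, 2.92 and 6.65 CPM in labelled KO NSD (-0.64 ± 0.35, adjusted p = 0.711), with overlap. Tyms stood the other way at 0.52 ± 0.35 (adjusted p = 0.811), and among mitosis genes Top2a was at -1.02 ± 0.82, Anln at -0.67 ± 0.59 and Cks2 at -0.15 ± 0.14 (adjusted p from 0.885 to 0.926). Without labelled KO NSD 1 and 3, the libraries with 4 and 0 counts of Ddx3y, the medians were 0.51 for mitosis genes, with 20 of 22 above 0, and 0.33 for replication genes, with 7 of 10 above 0, against a single labelled KO NSD library, whose spread was taken to be that of the other groups.

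On normal salt, labelled knockout and wild type were compared next. Most mitosis genes were somewhat higher in labelled KO NSD than in WT NSD, and again none passed. EdgeR called 0 of 30 members (smallest adjusted p = 0.376), against 0.414% of all genes, and 0 members were at an unadjusted p under 0.05, against 14.3% of all genes. DESeq2 called 0 members and 4.69% of its genes. Medians were 0.32 for mitosis genes, with 16 of 20 above 0, and 0.19 for replication genes, with 6 of 10 above 0. Without labelled KO NSD 1 and 3 they were -0.40, with 6 of 22 above 0, and -0.25, with 0 of 10 above 0.

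Groups did not overlap in Ccna2 and Ccnb2, both higher, against 9.99% of all genes, and in 0 members lower, against 9.5%. Ccnb2 had 0.845, 0.440 and 0.440 CPM in labelled KO NSD, against 0.114, 0.289 and 0.361 CPM in WT NSD (1.17 ± 0.88, adjusted p = 0.620, and 0.77 without labelled KO NSD 1 and 3), on 8 to 17 counts in labelled KO NSD and 2 to 6 counts in WT NSD. Ccna2 had 1.69, 1.13 and 1.39 CPM in labelled KO NSD, against 0.987, 0.963 and 0.843 CPM in WT NSD. Mki67 had 2.88, 0.440 and 1.27 CPM in labelled KO NSD, against 0.743, 0.926 and 0.481 CPM in WT NSD (1.10 ± 0.73, adjusted p = 0.568), with labelled KO NSD 2 the lowest of the 6. Mcm6 had 4.23, 2.64 and 8.17 CPM in labelled KO NSD, against 2.68, 2.89 and 3.01 CPM in WT NSD (0.82 ± 0.39, adjusted p = 0.376), and here too labelled KO NSD 2 was the lowest. Mcm7 stood at -0.44 ± 0.22 (adjusted p = 0.389), Mcm5 at 0.67 ± 0.43 (adjusted p = 0.548) and Anln at -0.75 ± 0.53 (adjusted p = 0.590). The genes called in this comparison included 5 of 13 neutrophil markers, S100a8, S100a9, Ltf, Retnlg and Mmp8. Of the 16 genes of the macrophage list only 1, Itgam, was called. The 16 macrophage markers summed to between 388 and 1190 CPM in labelled KO NSD and between 217 and 288 CPM in WT NSD, and the 13 neutrophil markers to between 259 and 979 CPM in labelled KO NSD and between 27.1 and 225 CPM in WT NSD, and the part of those cells in the values of this comparison, Ccnd1, Wee1 and Myc included, was not tested.

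On high salt, most genes of both groups were lower in labelled KO HSD than in WT HSD, without a call. EdgeR called 0 of 30 members (smallest adjusted p = 0.933) and 0% of all genes, with 4 members at an unadjusted p under 0.05, Anln, Cdk1, Cdc20 and Ccnb2, all lower, against 4.62% of all genes. DESeq2 called 0 members and 0.181% of its genes. Medians were -0.56 for mitosis genes, with 1 of 20 above 0, and -0.35 for replication genes, with 1 of 10 above 0. Without WT HSD 1 they were 0.26, with 15 of 20 above 0, and -0.21, with 2 of 10 above 0. In the same comparison the markers of neutrophils had a median of 3.38 (13 of 13 above 0), those of T and NK cells 1.10 (10 of 12), of sinusoidal endothelium -0.38 (0 of 9) and of stellate cells and matrix -0.53 (1 of 10). The neutrophil markers summed to 741, 474 and 34 CPM in labelled KO HSD, against 17.6, 34.9 and 15.4 CPM in WT HSD. Labelled KO HSD 3 thus lay within the range of WT HSD. The part of all these cells in the values of this comparison was not tested.

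Anln, the anillin that scaffolds the cleavage furrow, had 0.107, 0.380 and 0.167 CPM in labelled KO HSD, against 0.973, 0.622 and 0.652 CPM in WT HSD. All 3 labelled KO HSD libraries lay below all 3 WT HSD libraries, on 2 to 6.78 and 10.87 to 17.99 counts, at a log2 fold change of -1.74 ± 0.55 (adjusted p = 0.933), and of -1.51 ± 0.62 without WT HSD 1. Rrm2 had 2.09, 4.09 and 1.28 CPM in labelled KO HSD, against 5.14, 4.29 and 5.08 CPM in WT HSD (-0.96 ± 0.44, adjusted p = 1), also without overlap. Mcm4 had 2.25, 2.07 and 2.00 CPM against 2.33, 2.63 and 3.49 CPM in WT HSD. Groups did not overlap in these 3 members lower, against 3.98% of all genes, and in 0 members higher, against 4.07%. Cdc20 stood at -2.68 ± 1.18 and Cdk1 at -1.46 ± 0.65 (adjusted p = 1 for both), and at -0.11 ± 0.99 and -0.48 ± 0.61 without WT HSD 1. Mcm7 had 9.26, 8.57 and 10.6 CPM against 12.3, 10.3 and 16.1 CPM in WT HSD (-0.45 ± 0.22, adjusted p = 1), and Tyms stood at 0.41 ± 0.34 (adjusted p = 1).

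The difference between the salt effects of the labelled genotypes (the interaction) was tested directly. It passed for 0 of 30 members (smallest adjusted p = 0.858), as for 0% of all genes, with 1 member, Ccnb2, at an unadjusted p under 0.05, against 5.41% of all genes. DESeq2 called 0 members and 0.0458% of its genes. The interaction was below 0 in 20 of 20 mitosis genes (median -1.02) and in 9 of 10 replication genes (median -0.52). It was -0.10 for mitosis genes without WT HSD 1, with 7 of 20 above 0, and -0.12 without labelled KO NSD 1 and 3. For replication genes it was -0.51 without WT HSD 1 and 0.10 without labelled KO NSD 1 and 3. The interaction of the macrophage markers had a median of -1.40 (2 of 16 above 0), that of the B and plasma cell markers -0.99 (0 of 5) and that of the sinusoidal endothelial markers -0.91 (0 of 9), and the part of these cells was not tested. Ccnb2 stood at -2.81 ± 1.15 (adjusted p = 0.858), Cdc20 at -3.30 ± 1.73 (adjusted p = 0.911) and Plk1 at -1.62 ± 0.99 (adjusted p = 0.924). Mcm6 stood at -1.16 ± 0.55, Mcm2 at -0.92 ± 0.50 and Mcm5 at -1.03 ± 0.61, with adjusted p from 0.904 to 0.916. The salt comparisons share no library, but each shares its libraries with the genotype comparisons, so that WT HSD 1 and labelled KO NSD 1 and 3 enter several of these values.

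**Figure D5:**
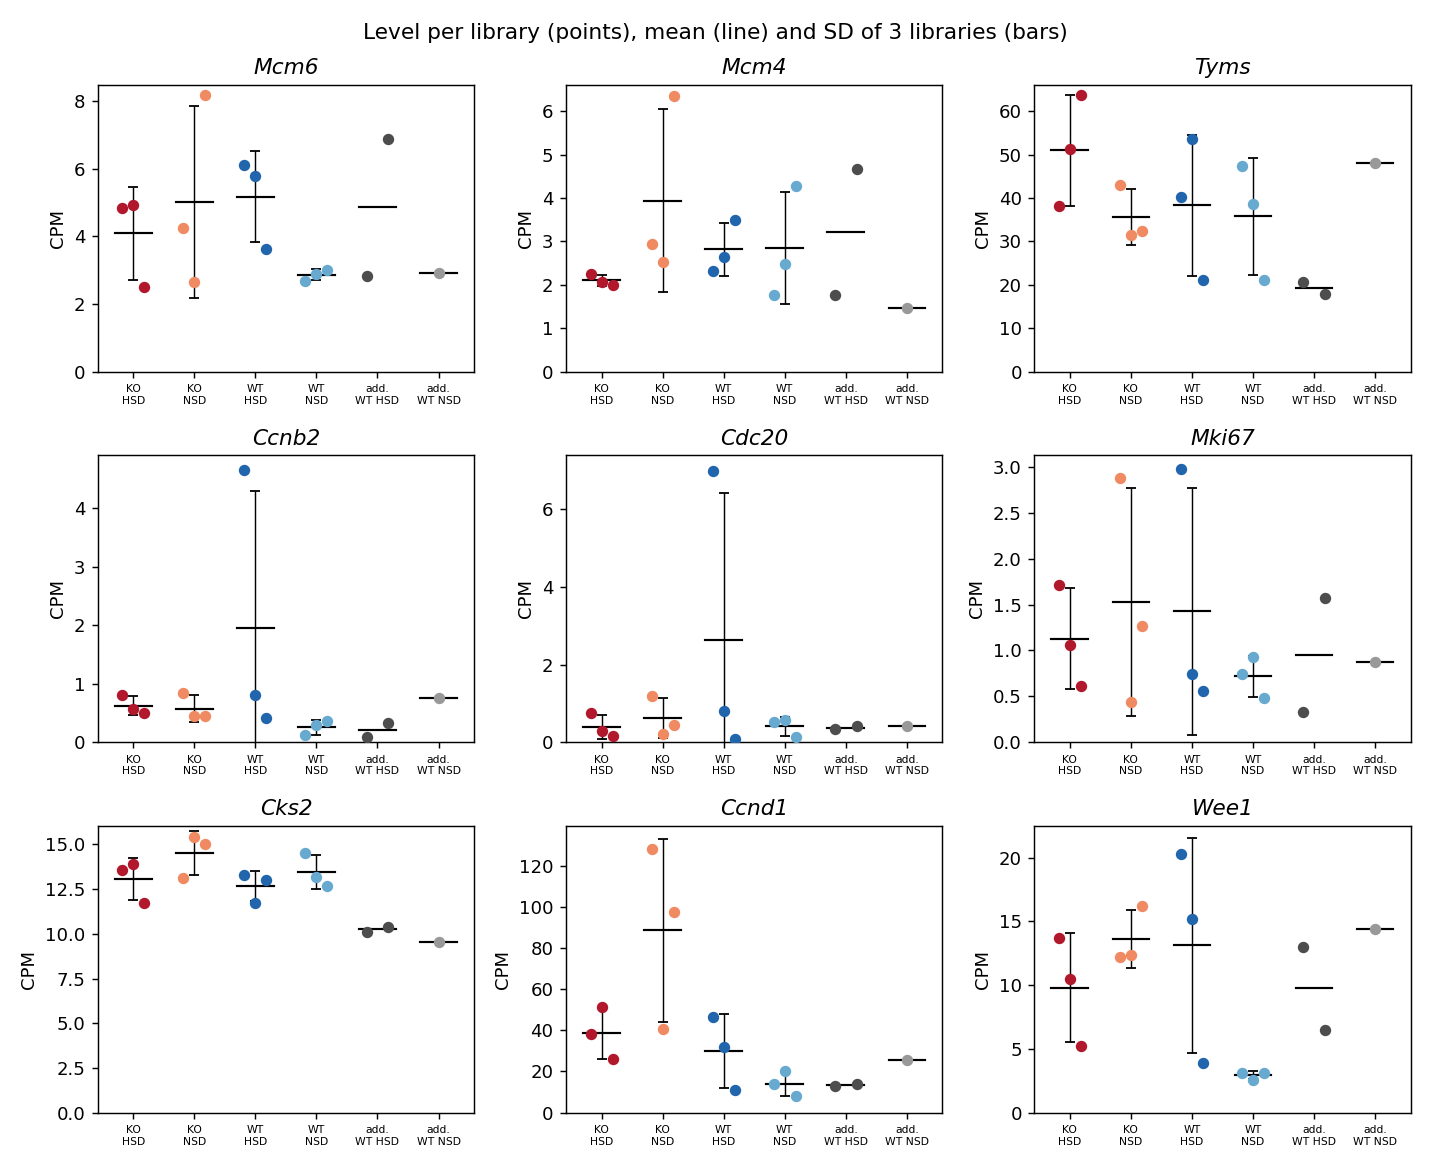
Level (CPM, vertical axis) of 7 members and of the regulators Ccnd1 and Wee1 in each library (points) by group (horizontal axis; KO marks libraries labelled Sirt3-/-, add. the additional set), with the mean (line) and the SD of 3 libraries (bars, cut at 0). WT HSD 1 stands alone in Ccnb2 (4.65 CPM) and Cdc20 (6.98 CPM), KO NSD 3 is highest in Mcm6 and Mcm4, and Ccnd1 separates KO NSD from WT NSD without overlap.

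Further genes of the same processes were counted in each comparison. Of 32 other replication genes and 21 other mitosis genes tested, edgeR called 0 in every one of the 5 comparisons of the 12 libraries. WT HSD 1 was the highest library in 23 of 42 other mitosis genes and in 9 of 38 other replication genes. In WT HSD against WT NSD the median log2 fold change was 0.48 for the other mitosis genes and 0.11 for the other replication genes, and 0.13 and 0.04 without WT HSD 1. In the other 4 comparisons with all libraries, the medians of the other mitosis genes lay between -0.38 and -0.03 and those of the other replication genes between -0.20 and -0.03. For labelled KO NSD against WT NSD, 9 of 21 other mitosis genes were above 0 (median -0.07), unlike the mitosis members.

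Further lists of cell cycle regulators and related genes passed no edgeR test with all 12 libraries. They held 28 G1 cyclins, kinases and E2F, RB and MYB factors, 18 inhibitors and p53 targets, and 11 growth signals. Whether differences in these genes, Wee1 included, bear on the replication and mitosis genes was not tested. Ccnd1 encodes cyclin D1, which promotes entry into the cycle. It had 128, 40.5 and 97.3 CPM in labelled KO NSD, against 13.9, 20.2 and 8.05 CPM in WT NSD. The groups did not overlap (log2 fold change 2.66 ± 0.58, edgeR adjusted p = 0.0691), and DESeq2 called it, with an adjusted p of 3.09e-05. EdgeR called it only without labelled KO NSD 2, the lowest of its group (3.01, adjusted p = 0.0216), which leaves the 2 libraries with 4 and 0 counts of Ddx3y. Without those 2 libraries it stood at 1.51 (adjusted p = 0.686), and without any 1 of the other libraries its adjusted p was 0.178 to 0.220. In the other comparisons of the 12 libraries it stood at 1.09 ± 0.55 for salt in wild type, -1.21 ± 0.55 for salt in the labelled knockout and 0.37 ± 0.54 for labelled KO HSD against WT HSD (adjusted p of 1, 0.616 and 1). Its interaction was -2.3 ± 0.78 (edgeR adjusted p = 0.835). In the additional set, with 1 normal salt library, it stood the other way for high salt in wild type, at -0.95.

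Wee1, the kinase that holds Cdk1 inactive, had 20.3, 15.2 and 3.87 CPM in WT HSD, against 3.14, 2.55 and 3.13 CPM in WT NSD. The groups did not overlap, though WT HSD 3 was close to WT NSD (2.16 ± 0.51, edgeR adjusted p = 1 and DESeq2 adjusted p = 0.0168). In the additional set, with 1 normal salt library, Wee1 stood at -0.57 for high salt. It had 12.2, 12.4 and 16.2 CPM in labelled KO NSD, above all 3 WT NSD libraries (2.22 ± 0.51, adjusted p = 0.0743 with edgeR and 0.000703 with DESeq2), and at 2.07 without labelled KO NSD 1 and 3 (edgeR adjusted p = 0.572). Its interaction was -2.64 ± 0.70 (adjusted p = 0.835 with edgeR). EdgeR called the salt difference (2.59, adjusted p = 0.0148) and the interaction (-3.04, adjusted p = 0.0485) without WT HSD 3, the high salt library nearest to WT NSD, so that these calls rest on its removal. Without any 1 of the other libraries the adjusted p was 0.591 to 1 for the salt difference and 0.378 to 1 for the interaction.

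Cdkn1a encodes the inhibitor p21. It had 2.54, 0.744 and 8.29 CPM in WT HSD, against 19.6, 28.6 and 2.53 CPM in WT NSD (-2.11 ± 0.86, edgeR adjusted p = 1), and 2.54, 3.63 and 3.52 CPM in labelled KO NSD (-2.38 ± 0.87 against WT NSD, adjusted p = 0.230). WT HSD 3 was the highest of WT HSD and WT NSD 3 the lowest of WT NSD, so that the groups overlapped. Leaving out 1 library at a time, the salt difference stood between -3.35 and -1.51, with adjusted p from 0.328 to 1. In the other set, additional WT HSD 2 was the highest of all with 39.4 CPM. Ccne1, cyclin E1 of the G1 to S passage, had 4.92, 1.83 and 0.652 CPM in WT HSD, against 0.571, 0.579 and 0.421 CPM in WT NSD, without overlap (2.22 ± 0.77, adjusted p = 1). Foxm1, a transcription factor of the mitosis genes, had 2.38, 0.401 and 0.280 CPM in WT HSD, against 0.343, 0.232 and 0.301 CPM in WT NSD (1.78 ± 0.84, adjusted p = 1), so that it too stood out in WT HSD 1. In the additional set, with 1 normal salt library, both pointed the other way, Ccne1 at -1.99 and Foxm1 at -2.06. Mybl2, which encodes B-MYB, had 0.753, 0.562 and 0.464 CPM in WT HSD and 0.369, 0.913 and 0.475 CPM in WT NSD, and E2f1 3.63, 2.68 and 2.28 CPM in WT HSD and 2.12, 4.05 and 2.83 CPM in WT NSD, with overlap in both. Myc had 9, 8.98 and 8.90 CPM in labelled KO NSD, against 4.11, 3.36 and 2.23 CPM in WT NSD, without overlap (1.47 ± 0.43, adjusted p = 0.118 with edgeR and 0.026 with DESeq2). Without labelled KO NSD 1 and 3 it stood at 1.46. On high salt the labelled genotypes differed in Myc by 1.33 ± 0.43 (edgeR adjusted p = 0.933). For salt in wild type Myc stood at 0.03 ± 0.44, and at -2.38 in the additional set, with 1 normal salt library. Hgf, the hepatocyte growth factor, stood between -0.79 and 0.03 in the 4 comparisons of 3 libraries against 3, with adjusted p from 0.850 to 1.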

How the data were processed

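Poly(A)-selected liver RNA was measured in 15 libraries. The authors deposited expected counts and FPKM per gene, made with Bowtie2 2.2.5 and RSEM 1.2.8 on mm10 per the submitters' processing notes; no annotation or strandedness is given in the sources used here. Expected counts were rounded to whole numbers and tested with edgeR 4.0.16 (quasi-likelihood, TMM, filterByExpr, R 4.3.3) with Benjamini-Hochberg adjustment over 13051 genes in 12 libraries, as 4 group means, or over 13864 genes in 15 libraries for the additional set, at 0.05. The scripts were tested on simulated data. CPM is scaled by TMM over 15 libraries, and deviations use log2(CPM + 0.5). FPKM was used between genes, and between libraries only for Birc5 and the FPKM sums.

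The 34 genes and all lists were chosen with earlier results of these data known. Fold changes are given for the 3 genes of smallest p per list (replication, mitosis) and comparison. Those of Ccnd1, Ccne1, Foxm1, Myc, Wee1, Cdkn1a and Hgf are given for some comparisons, not for all. E2f1 and Mybl2 are given by CPM in the wild-type groups only. DESeq2 1.42.0, other size factors, no filter, a replicate block and left-out libraries were alternatives. Nothing says that replicates were separate animals, so p-values measure the spread between libraries, which may be technical. An exact test of 3 against 3 cannot go below 0.1. Deviations of same-numbered libraries correlated at 0.241, 0.18 and 0.58 between WT HSD and WT NSD, above 0.1 in every pair, but not in the other 3 comparisons.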

Additional observations from a re-analysis of the deposited data

How the results depend on the processing

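No member was called in any of the 67 alternative tests of the 6 comparisons, and the lowest adjusted p of a member was 0.125 (edgeR, WT HSD against WT NSD without WT HSD 3). With the replicate block, which joins same-numbered libraries, 0 members were called. No label says that these numbers mark pairs. The median log2 fold changes of replication and mitosis genes were then 0.14 and 0.62 for salt in wild type. They were -0.25 and -0.23 for salt in the labelled knockout, and 0.18 and 0.23 for labelled KO NSD against WT NSD. For labelled KO HSD against WT HSD they were -0.35 and -0.53, and for the interaction -0.50 and -0.95. Leaving out 1 library at a time, the medians of replication and mitosis genes ranged from 0.12 to 0.31 and from -0.13 to 1.18 for salt in wild type, from -0.47 to 0.14 and from -0.53 to 0.18 for salt in the labelled knockout, from -0.10 to 0.43 and from -0.04 to 0.48 for the labelled genotypes on normal salt, from -0.44 to -0.18 and from -1.10 to 0.26 on high salt, from -0.75 to -0.20 and from -1.46 to -0.10 for the interaction, and from 0.12 to 0.63 and from -0.86 to 0.04 in the additional set.

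Without labelled KO NSD 1 and 3, the medians of replication and mitosis genes were 0.33 and 0.51 for salt in the labelled knockout, -0.25 and -0.40 for the labelled genotypes on normal salt, and 0.10 and -0.12 for the interaction. The same setting reversed Top2a (1.71) and Anln (0.41) for salt in the labelled knockout, Mki67 (-0.70), Mcm6 (-0.12) and Mcm5 (-0.37) for the labelled genotypes on normal salt, and Plk1 (0.08) and Mcm5 (0.02) for the interaction. Without WT HSD 3 and WT NSD 3, an alternative chosen after seeing the data, the replication median of the interaction was -0.83. The cause of these shifts was not tested. Of the other values, 119 medians stayed within 1 SD between libraries. Depth limits the mitosis genes most, since 19 of 24 had under 10 counts in at least 1 library.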
